A study of Mus musculus with 8 samples.

Results

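Slit2 and Robo1, a ligand and a receptor of the Slit/Robo guidance system, were expressed in opposite pairs of lines within a panel of 4 mouse mammary tumour lines. The system was followed through its 7 mouse genes, the ligands Slit1, Slit2 and Slit3 and the receptors Robo1, Robo2, Robo3 and Robo4, which were found by their Entrez gene identifiers among the 27179 genes of the count table. The 4 lines, 4T1.2, 4T1, 66cl4 (printed 66c14 in the sample labels) and 67NR, are isogenic, and each gave 2 libraries from biological replicates grown in culture with serum and no treatment named in the labels, so there were 8 libraries in all. 4T1 and 4T1.2 spread readily, 4T1.2 also to bone, while 66cl4 and 67NR are their sibling lines of low metastatic potential. Each group thus holds 2 lines, and the tests below measure the spread between libraries of the same line, not between tumours or between independently derived lines of either kind.

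Slit proteins are secreted ligands that bind Robo receptors such as Robo1 at the surface of neighbouring cells. Heparan sulfate chains of syndecans and glypicans take part in the complex. Bound Robo1 acts on the actin cytoskeleton through adaptor and actin-binding proteins, and the system is best known for repelling axons at the midline of the nervous system. In the mammary gland Slit2 and Robo1 take part in duct growth, and in many epithelial cancers Slit2 is known as a gene that is silenced. Robo3 is a divergent receptor of commissural axons, and Robo4 is known mainly from blood vessels.

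Libraries held 37159840 to 66269681 counts, and replicates of a line correlated at 0.995 to 0.996 across genes on the log2 CPM scale (genes are not independent replicates). Of the 8 epithelial markers, 7 were tested and all 7 were called higher in 4T1 and 4T1.2, beside 38.1% of all tested genes. Epcam had 778 to 2378 counts there against 0 or 1 count in every 66cl4 and 67NR library. Of 7 mesenchymal markers tested, 2 were higher and 5 lower in 4T1 and 4T1.2, beside 38.1% and 38.6% of all tested genes. Vim had at least 69387 counts in every library. The leucocyte markers Cd3e and Tyrobp had 0 counts in all libraries and Ptprc at most 2, and Snap25, a neuronal marker, had 0. Among the tested markers of these lists, 2 leucocyte genes were higher and 2 lower, and 2 neural genes were called higher and 1 lower, beside the same shares. For 1 of the neural genes called higher, Map2, the summed counts did not differ beyond counting error, 31 in 4T1 and 4T1.2 and 29 in the siblings, all of the latter from 66cl4 and 0 from 67NR. The summed leucocyte level was 4.13 to 5.63 CPM in 4T1 and 4T1.2 and 20.1 to 25.8 CPM in the sibling lines, mostly from Lyz2, and the neural level was at most 1.21 CPM. The part of these markers in the Slit and Robo differences was not tested.

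Of the 7 genes, 5 passed the filter on low counts and were tested among 13924 genes. Robo2 had 0 counts in all 8 libraries and Slit3 had 0 to 4, so neither was tested. All but Robo3 passed the filter only through lines in which they were high, so that a count of calls over the tested genes is not support for a change of the family. In the pooled comparison, 4T1 with 4T1.2 on one side and their 2 siblings on the other, Robo1 and Robo4 were higher and Slit1, Slit2 and Robo3 were lower in the metastatic pair (edgeR's quasi-likelihood test, adjusted p below 0.05). That comparison called 38.1% of all tested genes higher and 38.6% lower, so being called is itself common between these lines. By the size of the fitted difference Slit2 stood 21st of the 13924 genes, Robo1 790th, Robo4 2002nd, Slit1 2710th and Robo3 4225th. The plot of levels by library shows each gene on its own axis.

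**Figure D1:**
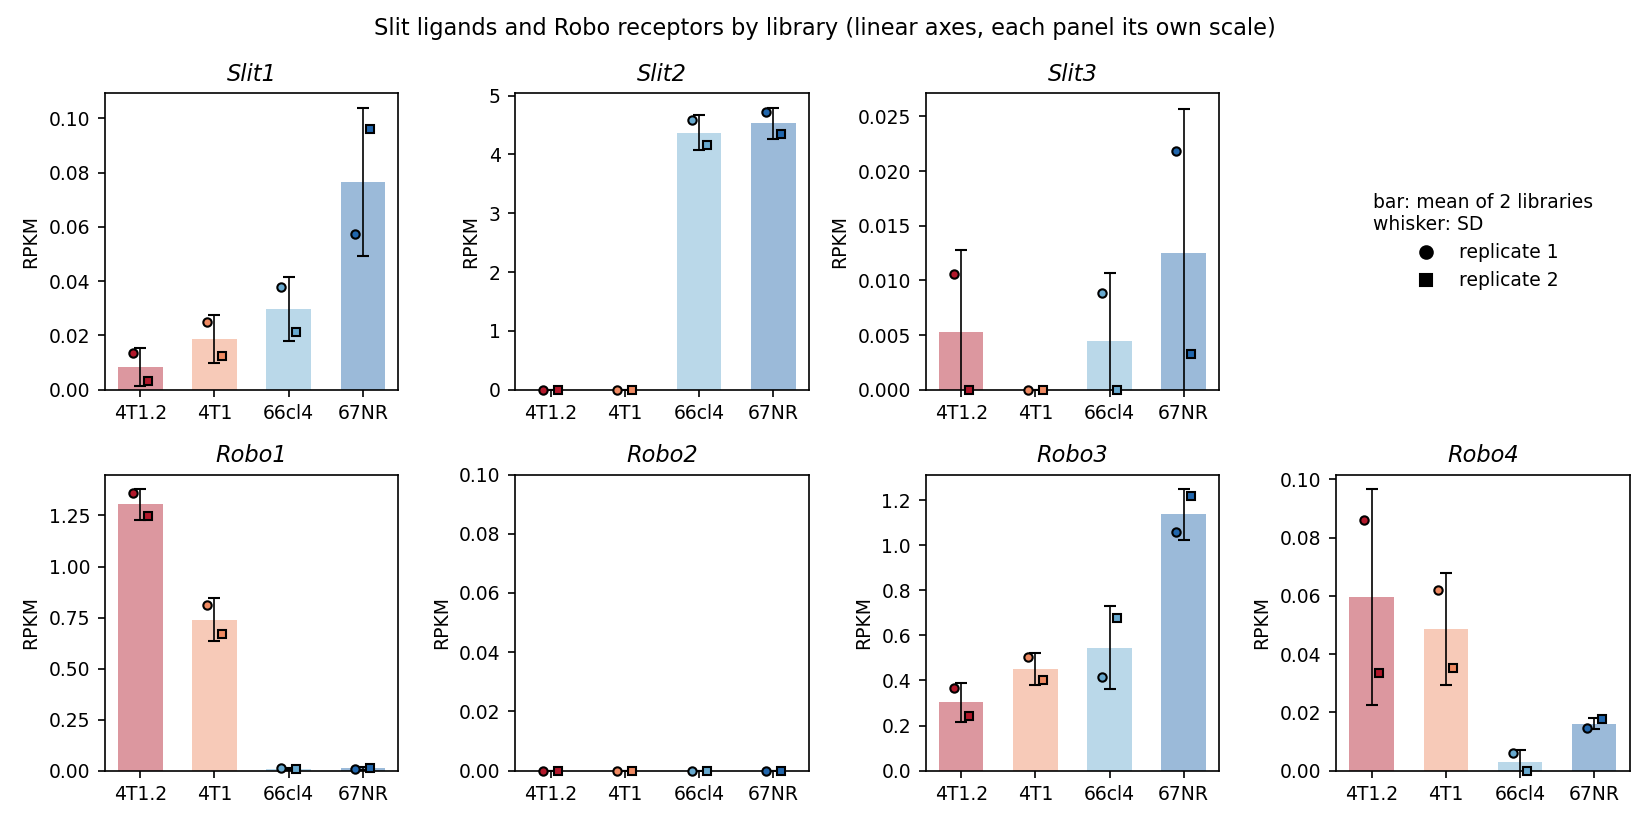
Level of each Slit and Robo gene in RPKM (counts per kilobase of exon, scaled to library size, linear axes that differ between panels) in the 4 lines, with bars for the mean of 2 libraries, whiskers for the SD and symbols for single libraries. Slit2 lies between 4.16 and 4.72 RPKM in the 66cl4 and 67NR libraries and at 0.0022 RPKM or below elsewhere, Robo1 lies between 0.667 and 1.36 RPKM in 4T1 and 4T1.2 and at 0.0150 RPKM or below elsewhere, and Robo2 is at 0 throughout.

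Slit2, the secreted ligand, was present in 66cl4 and 67NR and close to absent from 4T1 and 4T1.2. The 66cl4 libraries held 1658 and 1488 Slit2 counts, those of 67NR 1381 and 2141, those of 4T1.2 1 and 0, and both of 4T1 held 0. The ranges lie far apart, with a single read in 4 libraries on one side and at least 1381 in every library on the other. Slit2 lies at chromosome 5, 47981291 to 48307735 (GRCm38), and the first 250 bases before and 50 after its RefSeq start are shown because it is the ligand that separates the lines, with each TATAAA and GGGCGG (read on either strand) in capitals.
Slit2 promoter, chr5:47982905-47983204, plus strand: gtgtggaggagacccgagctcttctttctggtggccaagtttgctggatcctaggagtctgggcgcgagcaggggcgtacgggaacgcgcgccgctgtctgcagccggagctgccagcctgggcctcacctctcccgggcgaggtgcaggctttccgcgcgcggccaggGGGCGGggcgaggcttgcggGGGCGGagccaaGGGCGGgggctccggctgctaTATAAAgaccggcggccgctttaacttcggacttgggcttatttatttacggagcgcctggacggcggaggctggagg
This stretch holds 30 CG dinucleotides, more than 88.3% of the 32851 promoters of the same length in the table (median 7). TATAAA, which 13.6% of all those promoters hold on either strand, begins 28 bases before that RefSeq start. GGGCGG, which 35.7% hold, occurs 3 times. The window lies inside the annotated gene, downstream of its first annotated base, and which Slit2 start these lines use was not measured. The motif matches describe the sequence only, and neither methylation nor factor binding was measured.

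The Slit2 level was 34.9 ± 2.42 CPM (counts scaled to library size, SD, n = 2) in 66cl4 and 36.2 ± 2.11 in 67NR, or 4.37 ± 0.303 and 4.53 ± 0.264 RPKM per length of exon. These 2 lines were not separated by the test (log2 fold change of 66cl4 over 67NR -0.05, 95% interval -0.33 to 0.23, adjusted p = 0.770 by edgeR). Among all tested genes the Slit2 level lay at the 34.9th to 36.8th percentile in the 4 libraries of these lines. Against 4T1, whose libraries had no read, Slit2 was at least 1251-fold higher in 66cl4 and at least 1283-fold higher in 67NR, taking 3 counts over the pair of 4T1 libraries as the floor. Against 4T1.2, with 1 read, the ratio of summed counts was 3963 in 66cl4 (95% interval 711 to 156587) and 4064 in 67NR (729 to 160582), intervals that cover counting error only. Across both pairs of lines the adjusted p was 1.63e-10 (edgeR). A count of 0 in a 4T1 library allows a level of up to 0.0491 CPM in replicate 1 and 0.0647 CPM in replicate 2. In these bulk libraries, fewer cells with Slit2 RNA and less Slit2 RNA per cell cannot be told apart.

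The other ligands added little. Slit1, an axon guidance ligand mainly known from the nervous system, was found at 11 and 31 counts for 67NR, 9 and 5 for 66cl4, 8 and 3 for 4T1, and 4 and 1 for 4T1.2. Its libraries were few in reads throughout, and the 67NR pair lay above all others. Slit1 was lower in 4T1 and 4T1.2 than in the sibling lines, by a pooled log2 value of -1.89 (standard error 0.47, adjusted p = 0.00432 by edgeR) and a ratio of summed counts of 4.10 the other way round (95% interval 2.32 to 7.66, counting error only). Leaving out 1 library moved the pooled value between -2.49 (without replicate 1 of 4T1.2) and -1.56. In the order 67NR, 66cl4, 4T1, 4T1.2 the neighbours 66cl4 and 4T1 (adjusted p = 0.434) and 4T1 and 4T1.2 (adjusted p = 0.376) were not separated by edgeR. The step from 67NR to 66cl4 passed narrowly (log2 fold change -1.42, adjusted p = 0.0467 by edgeR) and did not pass in 8 of the alternatives, among them leaving out replicate 2 of 67NR, which gave -0.94 with an adjusted p of 0.341 by edgeR.

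Slit3 reads numbered 4 and 1 for 67NR, 2 and 0 for 66cl4, 3 and 0 for 4T1.2, and 0 for both replicates of 4T1. No library of any line held more than 4 Slit3 reads, and no difference between lines was detectable at this depth. Per length of exon, Slit2 therefore made up 97.8% to 99.5% of the summed Slit level in the 66cl4 and 67NR libraries. That summed level was 4.18 to 4.80 RPKM in these libraries and 0.00337 to 0.0262 RPKM in 4T1 and 4T1.2.

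Robo1, the broadly expressed Slit receptor, had the opposite distribution to Slit2. Its reads numbered 584 and 536 for 4T1.2, 376 and 234 for 4T1, 4 and 2 for 66cl4, and 2 and 7 for 67NR. All 4T1.2 libraries lay above all 4T1 libraries, and those above all others. Robo1 lies at chromosome 16, 72027518 to 73047491 (GRCm38), and the RefSeq promoter listed for it is shown beside that of Slit2, with which it shares neither motif. This window lies inside the gene, far downstream of its first annotated base, and which start these lines use was not measured.
Robo1 promoter, chr16:72662899-72663198, plus strand: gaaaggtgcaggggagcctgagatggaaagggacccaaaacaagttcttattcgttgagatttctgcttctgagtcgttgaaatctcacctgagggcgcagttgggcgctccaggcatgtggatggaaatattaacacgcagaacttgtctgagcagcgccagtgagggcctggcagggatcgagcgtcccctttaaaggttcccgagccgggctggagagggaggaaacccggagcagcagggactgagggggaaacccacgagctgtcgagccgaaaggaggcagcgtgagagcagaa
Neither TATAAA nor GGGCGG occurs in these 300 bases on either strand, so there are no capitals, and the stretch holds 15 CG dinucleotides, more than 65.4% of the promoters in the table. The absence of these letters from the window says nothing of the factors that act there.

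The Robo1 level was 9.87 ± 0.586 CPM (SD, n = 2) for 4T1.2, 5.60 ± 0.784 for 4T1, 0.0665 ± 0.0309 for 66cl4 and 0.0840 ± 0.0417 for 67NR. Pooled over the lines, the log2 fold change was 6.53 (with a standard error of 0.21, adjusted p = 1.61e-09 by edgeR), and the ratio of summed counts was 98.4 (95% interval 59.5 to 176, counting error only). Each single-line comparison across the groups gave the same direction, with log2 fold changes from 5.91 (4T1 over 67NR) to 7.16 (4T1.2 over 66cl4). Robo1 was the only tested member called between the 2 metastatic lines, where 4T1.2 exceeded 4T1 by 0.81 on the log2 scale (standard error 0.16, adjusted p = 0.00764 by edgeR) or a count ratio of 1.74 (95% interval 1.57 to 1.92, counting error only). That comparison called 9.37% of all tested genes higher and 9.93% lower. Without replicate 1 of 4T1.2 the log2 fold change was 0.75 and the adjusted p 0.0677 (edgeR), in a fit that left 1 library of that line and called 1373 genes in all in place of 2687. Between 66cl4 and 67NR, with 6 and 9 reads in all, the log2 fold change was -0.44 (95% interval -1.92 to 1.04, adjusted p = 0.642 by edgeR), an interval too wide to place these lines.

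Robo3, the divergent receptor known from axons that cross the midline, was the only receptor found at 65 or more counts in every library. Its counts were 183 and 355 for 67NR, 89 and 143 for 66cl4, 145 and 88 for 4T1, and 98 and 65 for 4T1.2. Per length of exon, the means were 1.14 ± 0.114, 0.546 ± 0.183, 0.452 ± 0.0712 and 0.304 ± 0.0866 RPKM in that order (SD, n = 2). In CPM the 67NR libraries, at 4.99 and 5.76, lay above all others, while the 66cl4 libraries, at 1.97 and 3.19, overlapped those of 4T1 at 2.37 and 1.90. For Robo3 the pooled log2 fold change was -1.08 (with a standard error of 0.19, adjusted p = 0.000479 by edgeR).

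In the order 67NR, 66cl4, 4T1, 4T1.2 the step from 67NR to 66cl4 was called for Robo3 (log2 fold change of 66cl4 over 67NR -1.06, standard error 0.26, adjusted p = 0.00783 by edgeR). The steps from 66cl4 to 4T1 (4T1 over 66cl4 -0.26, 95% interval -0.87 to 0.34, adjusted p = 0.404 by edgeR) and from 4T1 to 4T1.2 (-0.58, 95% interval -1.21 to 0.05, adjusted p = 0.192 by edgeR) were not. 4T1.2 was lower than 66cl4 for this gene (-0.84, adjusted p = 0.0220 by edgeR), but this call was lost without replicate 2 of 4T1.2 (-0.57, adjusted p = 0.154 by edgeR) or replicate 2 of 66cl4 (-0.45, adjusted p = 0.218 by edgeR). The step between the sibling lines was lost without replicate 1 of 66cl4 (-0.76, adjusted p = 0.0570 by edgeR) or replicate 2 of 67NR (-0.95, adjusted p = 0.0655 by edgeR).

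Robo4, the receptor known from endothelium, was rare. Its reads numbered 18 and 7 for 4T1.2, 14 and 6 for 4T1, 1 and 0 for 66cl4, and 2 and 4 for 67NR. Every 4T1.2 and 4T1 library had more Robo4 reads than every library of the sibling lines, with the closest at 6 against 4. For Robo4 the pooled log2 fold change was 2.80 (with a standard error of 0.64, adjusted p = 0.00258 by edgeR) and the ratio of summed counts 5.48 (95% interval 2.45 to 14.4, counting error only). Leaving out 1 library moved the pooled value from 2.38 to 4.05, the latter without replicate 1 of 66cl4, which held the only Robo4 read of that line. Against 66cl4, with 1 read, the count ratio was 19.8 for 4T1.2 (95% interval 3.25 to 815) and 16.8 for 4T1 (2.68 to 695). Against 67NR, 4T1.2 passed narrowly (log2 fold change 1.81, adjusted p = 0.0428 by edgeR) and 4T1 did not (1.56, adjusted p = 0.0833 by edgeR), and without replicate 1 of 4T1.2 the former was 0.99 with an adjusted p of 0.320 (edgeR). This call was also lost with no filter on low counts (adjusted p = 0.0601 by edgeR), with DESeq2's Wald test (0.133), with limma-voom (0.0544) and without replicate 1 (0.126) or replicate 2 (0.156) of 67NR. Within the pairs, 4T1.2 and 4T1 were not separated for Robo4 (0.25, 95% interval -0.97 to 1.47, adjusted p = 0.808 by edgeR), nor were 66cl4 and 67NR with 1 and 6 reads in all (adjusted p = 0.217 by edgeR). The call for 4T1 against 66cl4 was lost without replicate 1 of 4T1 (3.28, adjusted p = 0.0505 by edgeR) or replicate 2 of 66cl4 (2.94, adjusted p = 0.0637 by edgeR).

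Because Robo4 marks endothelium, it was set beside 10 endothelial markers. Of the 5 tested, 4 were called higher in 4T1 and 4T1.2, beside 38.1% of all tested genes. These were Egfl7, a secreted vascular factor, and Tie1, an orphan receptor of endothelial cells, with Cdh5 and Pecam1. Cdh5 is the cadherin of endothelial junctions and Pecam1 an adhesion molecule of endothelium and platelets. The fifth, Esam, had a log2 fold change of 0.74 and an adjusted p of 0.162 (edgeR). The summed level of the list was 33.8 to 51.6 CPM in 4T1.2 and 4T1 and 0.710 to 1.32 CPM in 66cl4 and 67NR, most of it from Egfl7. Of the markers not tested, Kdr, which encodes the main VEGF receptor, and Erg, an endothelial transcription factor, had at most 1 count in any library. Tek had at most 5 and Vwf at most 11. Emcn had 0 counts in all 4T1, 4T1.2 and 67NR libraries and 8 and 5 in those of 66cl4. Tie1 and Cdh5 were higher in 4T1 (370 and 336, and 204 and 90 counts) than in 4T1.2 (31 and 50, and 42 and 33 counts), whereas Robo4 was not called between these lines. The part of these genes in the Robo4 difference was not tested.

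**Figure D2:**
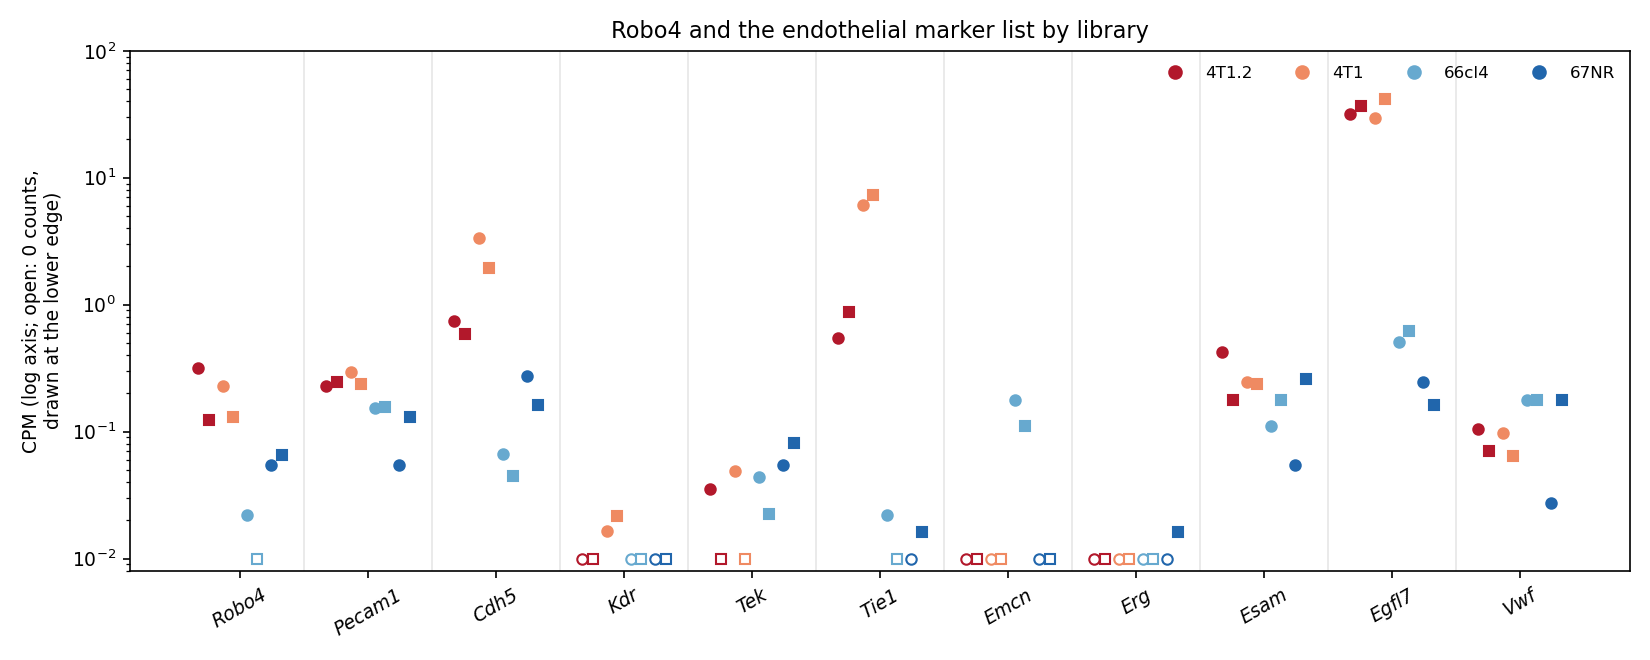
CPM on a log axis for Robo4 and the 10 endothelial markers in each library, coloured by line, with circles for replicate 1, squares for replicate 2 and open symbols at the lower edge for libraries with 0 counts. Egfl7 is the only marker above 10 CPM, in 4T1 and 4T1.2, while Kdr and Erg have at most 1 count in any library.

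Robo2, the remaining receptor of the nervous system and kidney, had no read in any library, which allows at most 0.0486 to 0.0819 CPM in a library. Summed over the receptors, the Robo level was 1.10 to 1.81 RPKM in 4T1 and 4T1.2 and 0.434 to 1.25 RPKM in 66cl4 and 67NR, so that the ranges overlapped. The Robo1 share of that sum was 75.1% and 81.9% for the replicates of 4T1.2, and 59.0% and 60.4% for those of 4T1. In 66cl4 and 67NR, Robo3 made up 95.9% to 99.1% of it. Robo1 in 4T1.2, at 1.30 ± 0.0774 RPKM (SD, n = 2), and Robo3 in 67NR, at 1.14 RPKM, were both below Slit2 in either sibling line on this scale. These sums and shares rest on 1 exon length per gene and take no account of which isoform was made. They also take no account of which of the receptors bind Slit.

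**Figure D3:**
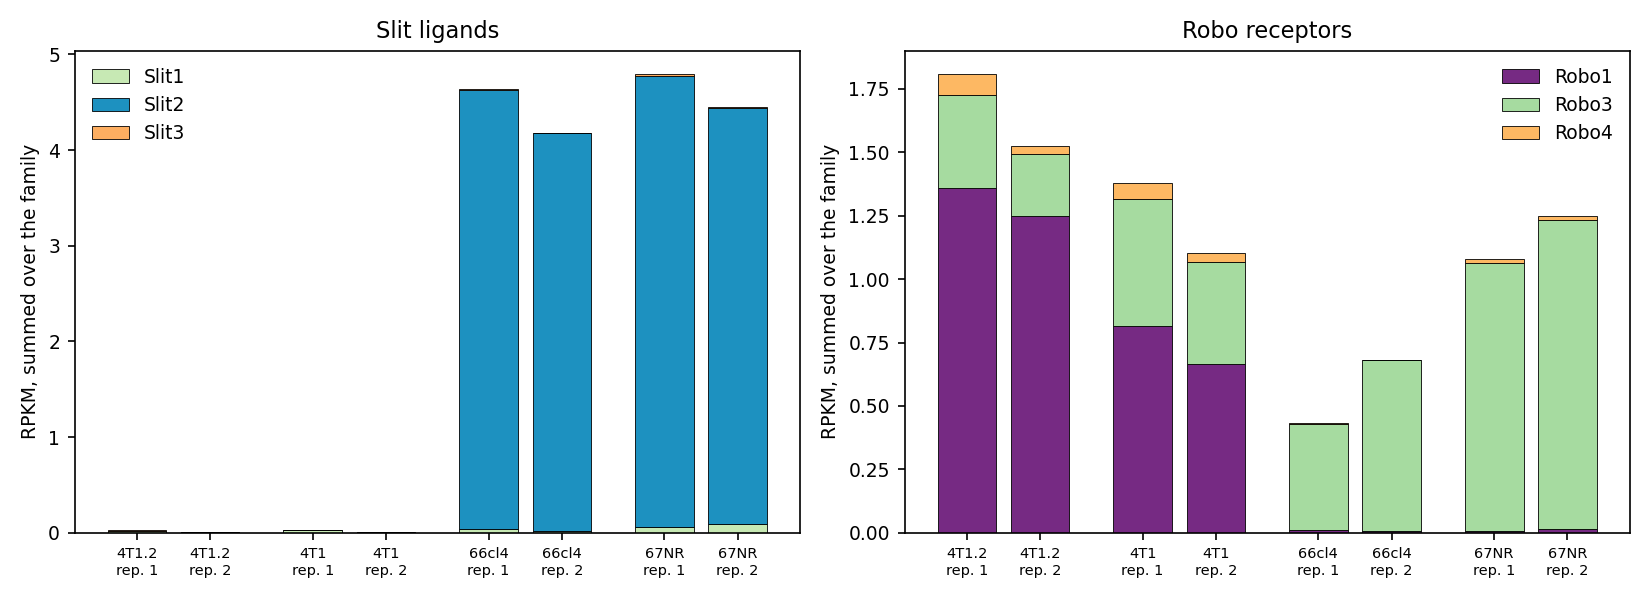
Levels of the Slit genes (left) and Robo genes (right) in RPKM, stacked for each library on linear axes from 0 (Robo2, at 0, is not drawn). Slit2 fills the ligand bars of 66cl4 and 67NR (97.8% to 99.5%), Robo1 is the larger part of the receptor bars in 4T1.2 and 4T1 (59.0% to 81.9%), and Robo3 fills those of 66cl4 and 67NR (95.9% to 99.1%).

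In the single-line comparisons across the groups, which share libraries with each other and with the pooled one, the members gave the following calls. For 4T1.2 against 66cl4, 2 of 5 were higher (Robo1, Robo4) and 2 lower (Slit2, Robo3), beside 34.3% and 34.5% of all tested genes. For 4T1.2 against 67NR the same receptors were higher and Slit1, Slit2 and Robo3 were lower, beside 33.7% and 34.1%. For 4T1 against 66cl4 the same 2 receptors were higher and Slit2 alone was lower, beside 34.9% and 35.2%, and for 4T1 against 67NR Robo1 was higher and Slit1, Slit2 and Robo3 were lower, beside 33.8% and 34.4%. The Slit1 call for 4T1 against 67NR was lost without replicate 2 of 67NR (-1.54, adjusted p = 0.0990 by edgeR). Between 66cl4 and 67NR no member was higher and Slit1 and Robo3 were lower in 66cl4, beside 22.2% and 22.4% of all tested genes. Slit2 was thus called lower and Robo1 higher in the 4T1 or 4T1.2 line in each of the 4 comparisons across the groups.

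Slit2 and Slit3 each carry a gene of the microRNA miR-218 in an intron, and both were in the count table. Mir218-1 lies at chromosome 5, 48223942 to 48224051, in intron 14 of Slit2 (transcript Slit2-208), and Mir218-2 lies at chromosome 11, 35616816 to 35616925, in intron 14 of Slit3 (transcript Slit3-201), both on the strand of the host gene (GRCm38). Robo1 is a known target of miR-218, so its mature sequence from RefSeq is shown with the seed (bases 2 to 8) in capitals, followed by the matches to that seed in the longest annotated 3′ UTRs of Slit2 and Robo1, with the 7 matching bases in capitals.
mmu-miR-218-5p: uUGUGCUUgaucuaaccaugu
Robo1, chr16:73045334-73045362, plus strand: ttttttggttttaaAAGCACAatcactaa
Slit2, chr5:48304529-48304557, plus strand: gccaatactagcagAAGCACAtctacaag
Slit2, chr5:48306832-48306860, plus strand: gataattattagcaAAGCACAtaaattaa
AAGCACA occurs in the longest 3′ UTR of 13.8% of 21020 protein-coding genes, and among the members also 2 times in Robo2 and 1 time in Robo3, but not in Slit1, Slit3 or Robo4. A longer UTR has more places for a match, and the median length was 961 bases. With a match were Slit2 (3492 bases), Robo2 (3987), Robo1 (1733) and Robo3 (343), and without one Slit1 (1212), Slit3 (365) and Robo4 (1728). Both microRNA genes had 0 counts in all 8 libraries, including the 66cl4 and 67NR libraries with Slit2 reads. Libraries of this kind are made from polyadenylated RNA and do not capture a mature microRNA, so its level was not measured and a match is no evidence of regulation.

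The genes that act with Slit and Robo were described from 4 lists. Of the effectors, which act inside the cell on the actin cytoskeleton, 19 of 20 were tested, and 6 were higher, 8 lower and 5 not called in 4T1 and 4T1.2, beside 38.1% and 38.6% of all tested genes. The median log2 fold change was 0.06, beside -0.01 over all tested genes. Evl, an Ena/VASP protein that promotes actin filament growth, had 24 to 75 counts in 4T1.2 and 4T1 and 1765 to 3788 in 66cl4 and 67NR (log2 fold change -6.20, standard error 0.13, adjusted p = 7.29e-11 by edgeR). Srgap1, which binds the inner part of Robo1, had 2 reads in all 4T1 and 4T1.2 libraries and 43 in the others, a ratio of 25.2 (95% interval 6.57 to 215, counting error only). Of the 43, 67NR gave 12 and 26 and 66cl4 gave 3 and 2, and 4T1 against 66cl4 was not called (adjusted p = 0.205 by edgeR). The Srgap1 relative Srgap3 was lower by less (log2 fold change -0.70), and Nck2, an SH2/SH3 adaptor, was higher (1.48, both below an adjusted p of 0.05 by edgeR). Abl1, a kinase that phosphorylates Robo, and the GTPase Rac1 had the smallest differences, 0.06 and 0.07, and were not called.

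Of the co-receptors and binding partners, 13 of 14 were tested, with 8 higher and 4 lower (beside 38.1% and 38.6% of all tested genes), 1 not called and a median log2 fold change of 0.29. Cdh2, or N-cadherin, whose adhesion Robo signalling acts on, had at most 1 count in any library of the metastatic pair and 2975 to 5099 in those of the siblings. Sdc3, a syndecan that carries heparan sulfate, was higher (log2 fold change 3.79, 20.1 ± 2.65 CPM in 4T1.2 and 1.75 ± 0.396 in 66cl4, SD, n = 2), as was Flrt3, a membrane protein that binds Robo1 (2.93). Nell2, a secreted ligand of Robo3, had 5 reads in 4T1 and 4T1.2 together and 89 in the sibling lines, where 26 and 54 of them came from 67NR. Dag1, or dystroglycan, which binds Slit, was not called (-0.14), and Sdc2 was the smallest difference that passed (0.28).

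All 6 genes of Robo turnover and shedding were tested, with 4 higher and 2 lower (beside 38.1% and 38.6% of all tested genes), none above a log2 difference of 1.05 in size and a median of 0.22. Ndfip2 and Ndfip1, adaptors that bring Nedd4-family ubiquitin ligases to their substrates, were higher (1.05 and 0.43), and Usp33, a deubiquitinase that binds Robo1, and Nedd4 were lower (-0.49 and -0.40). Itch and Adam10, the protease that sheds Robo, were higher by 0.15 and 0.30. Of the netrins and their receptors, the other midline system, 6 of 11 were tested, with 3 higher and 2 lower (beside the same 38.1% and 38.6%), 1 not called and a median of 1.73. Ntng2, or netrin-G2, had 166 to 345 counts in 4T1 and 4T1.2 and 0 or 1 in the sibling lines. Ntn3 was higher (4.62) and Ntn5, with 3 reads against 43, was lower. Ntn4 was called higher (3.70), a value that rests largely on 66cl4, with 1 count in each library. For 67NR the mean Ntn4 level was 0.77 CPM, below 4T1.2 (1.53) and 4T1 (2.14), and the ratio of summed counts across the pairs was 4.29. The receptor Neo1 was not called (-0.24, adjusted p = 0.0587 by edgeR). Ntn1 was called lower (-0.51), but only the 4T1 line was low, with a mean of 30.2 CPM. The 4T1.2 mean for Ntn1, 62.2 CPM, was close to both siblings (66cl4 at 60.4, 67NR at 62.7). Dcc, the main netrin receptor, had at most 5 counts in a library and was not tested. The plot of fold changes by list shows Slit2 and Cdh2 apart from all the others on the lower side.

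**Figure D4:**
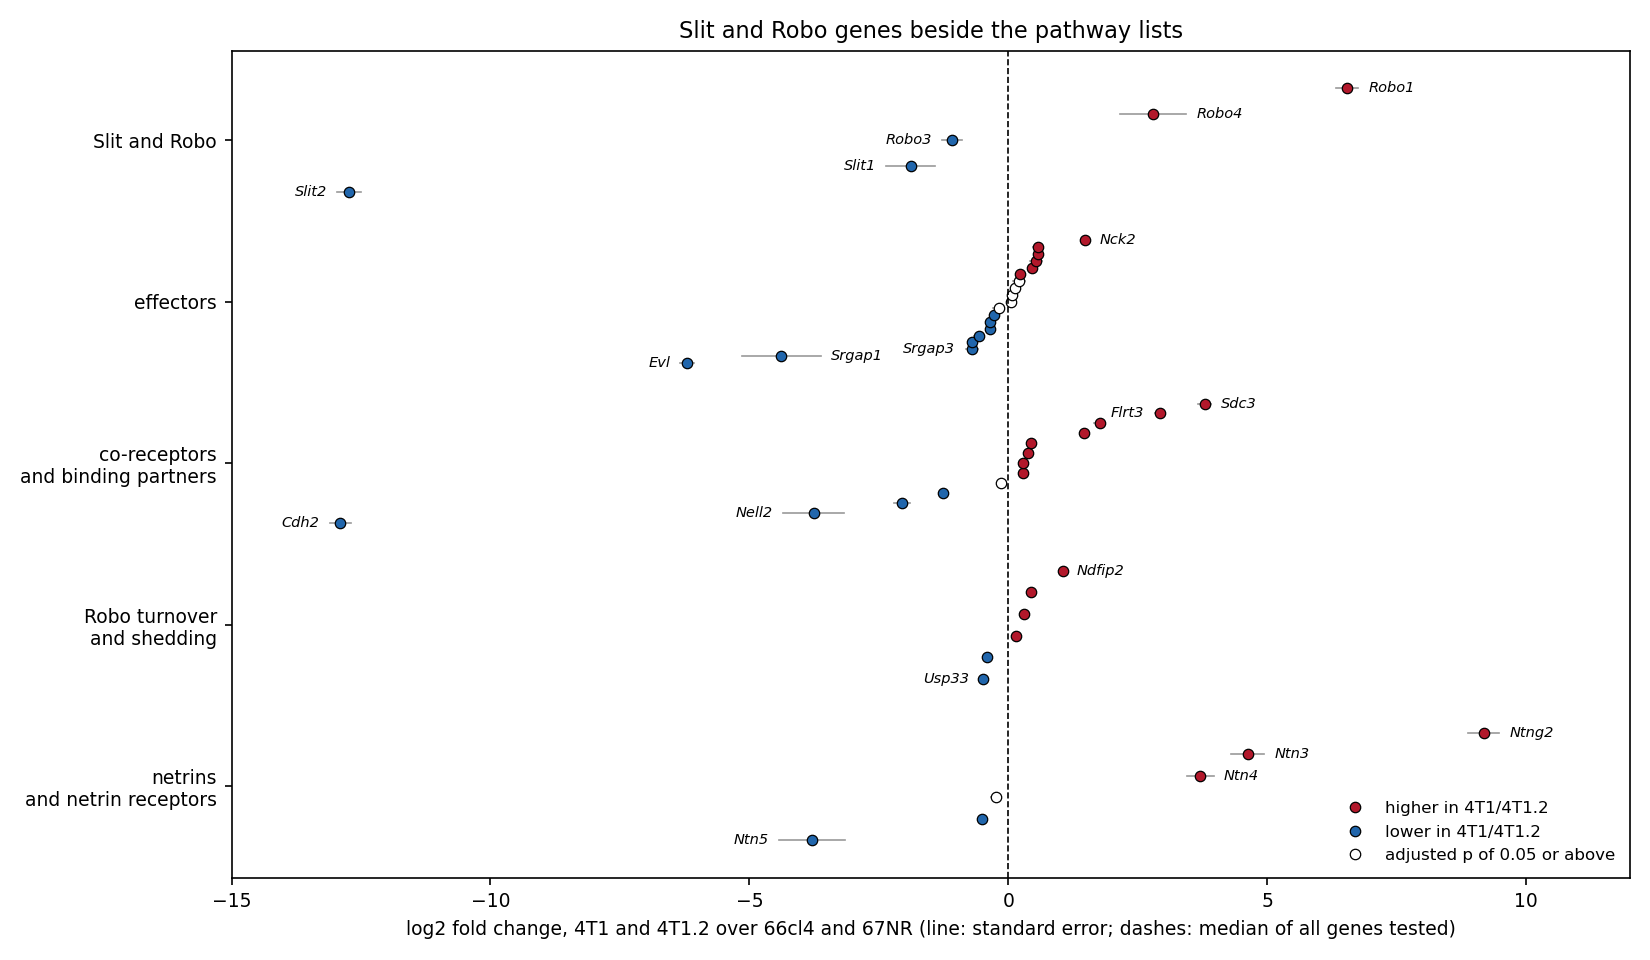
Log2 fold change of 4T1 and 4T1.2 over 66cl4 and 67NR for the tested Slit and Robo genes and the 4 pathway lists, with a line for the standard error, colours for the calls and a dashed line at the median of all genes tested (-0.01). Robo1 is at 6.53 and Slit2 is farthest left but for Cdh2. The positions of Slit1, Slit2, Robo4, Cdh2, Ntng2, Srgap1, Ntn3, Ntn4, Ntn5 and Nell2 depend on the prior count of the fit because a line had 5 or fewer reads in all.

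The patterns of Slit2 and Robo1 were shared by many genes. Over the 8 libraries, the log2 CPM of 296 tested genes correlated with that of Slit2 above 0.99, and of 203 with that of Robo1. These correlations are descriptions over 8 points that share 4 lines, and any gene with a like step between the pairs of lines has a high value. The nearest to Slit2 were Bambi, a decoy receptor of the TGF-β family, Sema3a, a secreted guidance ligand of another family, and Lrch2. Sema3a had 33 to 63 counts in 4T1 and 4T1.2 and 15387 to 26284 in the sibling lines. The nearest to Robo1 were Map1a, a microtubule-associated protein, Prkch, a protein kinase C, and Nipal4. Robo3 was nearest to the chemokine Cxcl5 (r = 0.992), and Slit1 and Robo4, with few reads, had no gene above 0.99 (nearest Usp32 at 0.973 and Upf2 at 0.985).

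The nearest tested neighbours of Slit2 and Robo1 on their chromosomes differed less, or in the other direction. Pacrgl, 64.7 kb from Slit2, had a pooled log2 fold change of -0.45 (adjusted p = 0.000207 by edgeR), and Lcorl on the other side, 2123 kb away, had -0.14 (adjusted p = 0.525 by edgeR). Among tested genes, Robo1 lies between Gbe1 (-0.57) and Rbm11 (-5.01), which are 1458 and 2545 kb away and were both lower in 4T1 and 4T1.2. The untested member Robo2 lies between Robo1 and Rbm11. Robo3 and Robo4 lie next to each other on chromosome 9, on opposite strands with their ends 2.02 kb apart, and were called in opposite directions. No exon of a member overlapped an exon of another annotated gene, and no stretch of 75 bases of a member's transcripts was found in the transcripts of another gene.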

How the data were processed

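RNA of 4 mouse mammary tumour lines was sequenced by the authors from TruSeq RNA v2 libraries with 2 biological replicates a line. Reads were mapped by the authors with Rsubread (mm10), featureCounts summed them by Entrez gene, and the deposited values are raw counts. The strand setting is not given in the sources used here. From these counts, genes past filterByExpr (15269) were kept, and after dropping identifiers without a match, predicted genes and genes of ribosomal proteins or RNA, 13924 remained. The genes removed held 5.35% to 7.96% of a library's counts. edgeR 4.0.16 (R 4.3.3) fitted a mean for each line over all 8 libraries with TMM scaling, the legacy quasi-likelihood F-test, a prior count of 0.125 and 4 residual degrees of freedom, and p-values were adjusted over all tested genes (Benjamini-Hochberg, threshold 0.05). Standard errors were derived from the F statistic and are approximate. CPM and RPKM use the TMM effective library size and the exon length in the count table. Intervals of count ratios are exact binomial intervals at 95%. Correlations use log2 CPM with a prior count of 2. Alternatives were DESeq2 size factors, no filter, a minimum of 10 counts in every library, keeping the genes dropped by annotation, the newer fit of edgeR, DESeq2 1.42.0, limma-voom (limma 3.58.1), a replicate block and fits without each library. The main edgeR fit, DESeq2's Wald test and limma-voom were run on simulated data, and the other alternatives were not. Promoters and microRNAs were taken from RefSeq (GRCm38.p6), where 6 of the 7 members had a promoter entry, and transcripts from GENCODE. Figures were drawn with matplotlib. The members, the lists and the rule for named genes (all members, the 4 largest and 2 smallest differences of a list, the nearest tested neighbours and the 3 most correlated genes) were chosen with earlier results of these data known. Replicates differed by more than sampling noise in every line, and nothing in the labels says whether they came from separate cultures, so p-values measure the spread between these libraries. The endothelial cell RNA-seq of the same study was not analysed here.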

Additional observations from a re-analysis of the deposited data

How the results depend on the processing

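Across the alternatives no fold change of a tested member that was called reversed its direction. Of the values under settings that kept all libraries, 244 kept their side of the threshold, 7 lost their call and 1 gained one. With each library left out in turn, 264 kept their side of it, 15 lost and 1 gained a call. Some values that were never called changed sign, such as Robo4 for 4T1.2 against 4T1 (-0.57 to 0.77 with 1 library left out). The pooled calls of the 5 members held under each setting in which the gene was tested. With at least 10 counts in every library fewer genes entered, and only Robo3 of the members was tested, among 11225 genes. Robo3 was then called in the pooled comparison, where 8437 genes were called. It was also called for 66cl4 against 67NR (5174 genes called), 4T1.2 against 66cl4 (7508), 4T1.2 against 67NR (7355) and 4T1 against 67NR (7382). It was not called for 4T1.2 against 4T1 (1990) or 4T1 against 66cl4 (7646). For 66cl4 against 67NR, 1 member in place of 2 was called with no filter, with DESeq2's Wald test, with limma-voom and with the replicate block, each time through the loss of Slit1, and 0 to 2 with 1 library left out. For 4T1.2 against 4T1, 0 to 1 members were called with 1 library left out. The replicate numbers were not taken as pairs, since deviations of same-numbered libraries correlated at -0.12 to 0.27 over the 6 pairs of lines, and the replicate block gave Slit1 a log2 fold change of -1.44 between 66cl4 and 67NR (adjusted p = 0.0589) and changed no other call of a member. Without the exon length, in CPM, Robo1 over Robo3 was 7.10 in place of 4.44 in 4T1.2. Slit1, Slit3 and Robo4 had at most 31 counts in a library, and differences between them are limited by depth.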
